A study of Mus musculus with 96 samples.

Results

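The genes described here are 7 that mark neurons of the habenula: Pou4f1, Chrnb4, Chrnb3, Chrna3, Tac2, Gpr151 and Tyrp1. They were picked from the 32594 genes of the count tables because they lead the variation among the thalamic libraries at 3 days post-injury (dpi), and all 7 symbols were found in both tables. The counts of the thalamic libraries at 3 dpi therefore chose the genes, and what those libraries show of the 7 genes is given below as a description without a test. Tests of the 7 genes were made on the thalamic libraries at 29 dpi, on the hippocampus and on the hypothalamus.

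The series holds 96 bulk mRNA libraries, 16 for each of 3 brain regions (thalamus, hypothalamus and hippocampus) at each of 2 time points, in 4 groups of 4. Adult male C57BL/6 mice, 8 to 10 weeks old, had either a controlled cortical impact on the left side, in which the skull is opened and the exposed brain surface is hit to cause traumatic brain injury (TBI), or a sham procedure of anesthesia and scalp incision without craniectomy. They were given candesartan (CD), a blocker of the angiotensin AT1 receptor, at 0.1 mg/kg per day, or vehicle (VH), so that the sham and the TBI mice each form a VH and a CD group, named as Sham + VH or TBI + CD. At 3 dpi the drug had been injected at 6, 24 and 48 h after the procedure, and at 29 dpi it had been injected at 6 h and then given by an osmotic pump implanted at 24 h, so the time points differ in route as well as in time. The sham mice had no opened skull, so the injury contrast holds the craniectomy as well as the impact. The tissue came from the injured side, the samples of a group with the best RNA were sequenced, and the labels neither name a batch nor tell which libraries came from the same mouse. If the libraries of a group are not separate mice, the p-values measure only the spread between these samples.

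The habenula is a small paired nucleus on the dorsal and medial edge of the thalamus, beside the third ventricle. Neurons of its medial part release acetylcholine, glutamate and tachykinin peptides, and send their axons through the fasciculus retroflexus to the interpeduncular nucleus of the midbrain. It is known for a very high density of nicotinic acetylcholine receptors that hold the alpha3 and beta4 subunits, and for its part in aversion to nicotine. Of the 7 genes, Pou4f1 encodes Brn3a, a POU homeodomain transcription factor of habenular neurons. Chrna3, Chrnb4 and Chrnb3 encode nicotinic receptor subunits, Tac2 encodes the precursor of neurokinin B, Gpr151 encodes an orphan G protein-coupled receptor, and Tyrp1 encodes an enzyme best known from melanosomes.

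In the GENCODE vM21 annotation of GRCm38, Pou4f1 lies at chr14:104461676-104467999 on the minus strand, Chrnb3 at chr8:27368711-27399730 on the plus strand, Tac2 at chr10:127724478-127731768 on the plus strand and Tyrp1 at chr4:80834123-80851719 on the plus strand. Chrna3 (chr9:55010111-55026562) and Chrnb4 (chr9:55028154-55048779) are neighbours on the minus strand, 1591 bases apart. Another subunit gene, Chrna5 (chr9:54980880-55007779, plus strand), lies 2331 bases from the other side of Chrna3.

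Because the 7 genes vary together, the sequences just before the start sites of those with a RefSeq promoter window are shown for what they do and do not share. Windows of 250 bases before the start were found for 5 of the 7 genes (GRCm38.p6). The 120 bases next to the start are printed for 3 of them, and 30 bases for Tyrp1. All are written 5′ to 3′ on the strand of the gene. Capitals mark E-boxes (CANNTG) in Pou4f1, Tac2 and Tyrp1, and in Chrna3 the GC box GGGCGG read on the other strand.
Pou4f1, chr14:104468000-104468119, minus strand: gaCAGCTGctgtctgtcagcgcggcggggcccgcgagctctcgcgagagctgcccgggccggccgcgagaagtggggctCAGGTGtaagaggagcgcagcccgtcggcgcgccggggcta
Chrna3, chr9:55026563-55026682, minus strand: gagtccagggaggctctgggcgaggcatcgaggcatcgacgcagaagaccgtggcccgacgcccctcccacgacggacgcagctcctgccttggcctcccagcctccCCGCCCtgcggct
Tac2, chr10:127724358-127724477, plus strand: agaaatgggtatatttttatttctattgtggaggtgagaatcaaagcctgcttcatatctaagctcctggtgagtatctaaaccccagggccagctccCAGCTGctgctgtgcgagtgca
Tyrp1, chr4:80834155-80834184, plus strand: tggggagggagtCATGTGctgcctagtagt
The RefSeq starts of Tyrp1 and Chrnb4 lie after the GENCODE ones. The 30 bases of Tyrp1 fall inside its GENCODE gene, as do 90 bases of its window of 250 and 235 bases of that of Chrnb4, which is not printed.

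The windows are unlike in base composition. Over 250 bases, G and C made up 78% of the Pou4f1 window, with 47 CpG pairs, 63.2% of that of Chrna3 and 61.2% of that of Chrnb4, most of which lies inside the GENCODE gene. They made up 47.2% of the Tac2 window, with 2 CpG pairs, and 39.2% of the Tyrp1 window, beside a median of 52.4% over 32851 windows. The motifs were searched on both strands. CANNTG was found in all 5 windows and in 66.2% of all windows of this length. GGGCGG was found in those of Pou4f1 and Chrna3 and in 32.7% of all windows. CATGTG, the core of the M-box of pigment cell genes and itself an E-box, was found 46 bases before the Tyrp1 start and also in the Chrna3 window, and in 12.3% of all windows. ATAATTAAT, a site bound by Brn3 factors, was in none of the 5 windows and in 0.259% of all windows, and the POU octamer ATGCAAAT was in none of the 5 and in 1.6% of all. A match here is a match of letters in a window, not a site known to be bound.

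All levels are CPM, the count of a gene over the library total and scaled to 1000000, and CPM is not corrected for gene length. In the thalamus at 3 dpi, Pou4f1 was measured at 3.63, 27.1, 5.77 and 12.5 CPM in the vehicle sham libraries (Sham + VH) and at 28.0, 20.2, 0.368 and 0.856 CPM after injury with vehicle (TBI + VH). With candesartan it was at 21.4, 13.4, 19.1 and 2.64 CPM in Sham + CD and at 15.1, 22.0, 18.8 and 0.368 CPM in TBI + CD, in the order of the replicate numbers. Each group held libraries above 10 CPM and at least 1 library under 6 CPM, and the 4 groups overlapped. The lowest and the highest library differed 76.1-fold, with 8 and 594 counts behind them.

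The other 6 genes were low in the same libraries at 3 dpi, as the plot of the thalamic libraries shows. Chrnb4 ran from 0.643 to 44.0 CPM (median 25.4), a 68.4-fold range, and Chrnb3 from 0.663 to 29.2 CPM (median 16.8), a 44.1-fold range. Chrna3 ran from 4.56 to 60.3 CPM (median 38.0), Gpr151 from 6.39 to 66.9 CPM (median 42.5) and Tac2 from 8.82 to 82.2 CPM (median 60.1). These 3 genes kept the highest floors, and their ranges were 13.2-fold, 10.5-fold and 9.32-fold. Tyrp1 was the least abundant, from 0.110 to 5.63 CPM (median 3.63), and no fold is given because its lowest library held 3 counts.

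**Figure D1:**
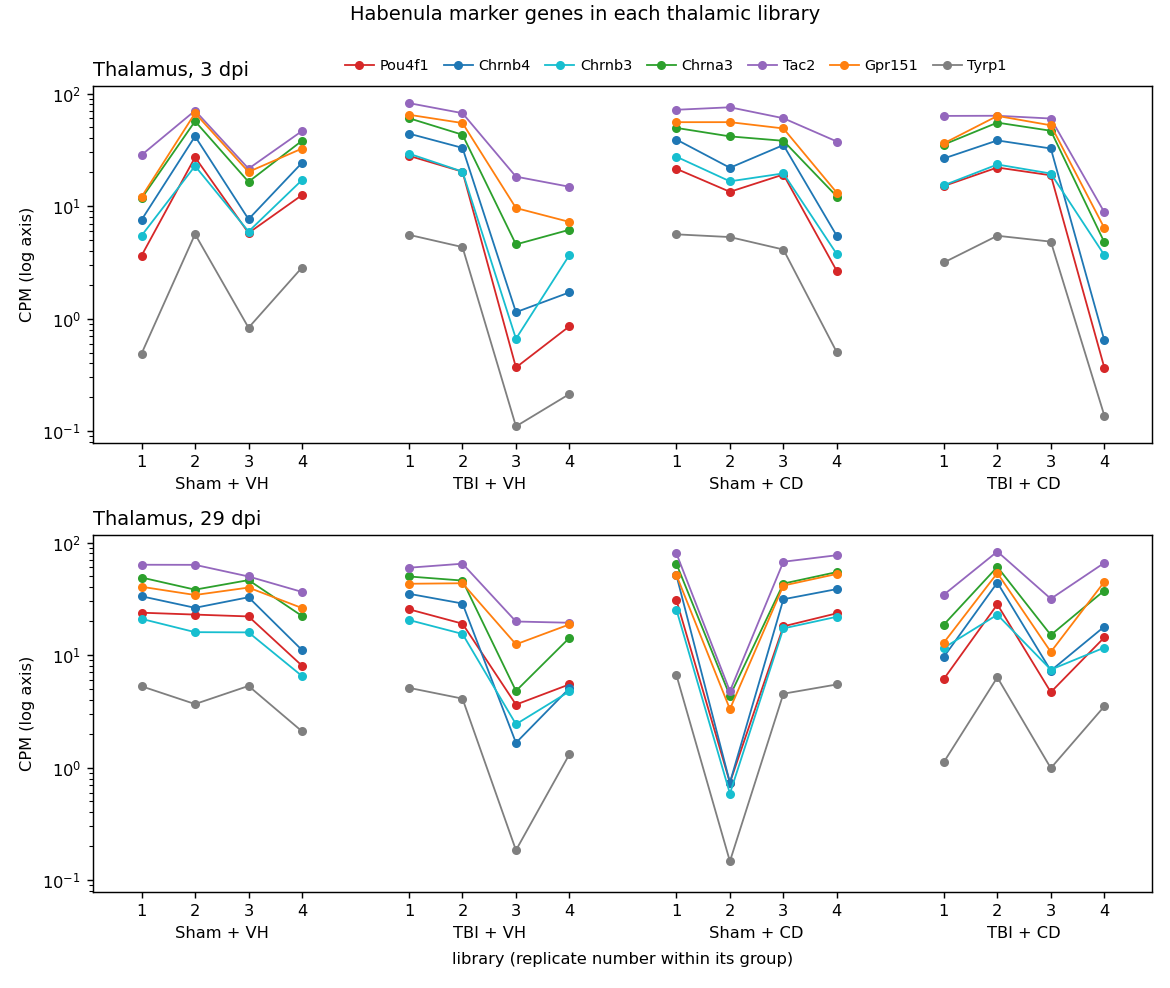
Level of the 7 genes in each of the 16 thalamic libraries at 3 dpi (top) and 29 dpi (bottom), in CPM on a log axis, with libraries placed by group and replicate number and lines joining the libraries of a group. The 7 lines dip together, for example in TBI + VH replicates 3 and 4 and TBI + CD replicate 4 at 3 dpi (Pou4f1 0.368, 0.856 and 0.368 CPM) and in Sham + CD replicate 2 at 29 dpi (0.735 CPM), and no group is high or low as a whole.

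The levels also ranged widely at 29 dpi, in libraries that did not enter the choice of the genes. The lowest and the highest library differed 41.8-fold for Pou4f1. Pou4f1 was measured at 23.8, 22.9, 22.0 and 8.04 CPM in the vehicle sham libraries (Sham + VH) and at 25.5, 19.0, 3.63 and 5.49 CPM after injury with vehicle (TBI + VH). With candesartan it was at 30.7, 0.735, 17.995 and 23.5 CPM in Sham + CD and at 6.14, 28.2, 4.68 and 14.3 CPM in TBI + CD. Sham + CD replicate 2 was far below the other libraries of its group, and in TBI + VH and TBI + CD, 2 of 4 libraries each were below 7 CPM. The groups again overlapped.

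Tac2, the most abundant of the 7, was measured at 29 dpi at 63.4, 63.3, 49.9 and 36.4 CPM in the vehicle sham libraries (Sham + VH) and at 59.7, 64.8, 19.9 and 19.4 CPM after injury with vehicle (TBI + VH). With candesartan it was at 79.9, 4.78, 67.4 and 77.1 CPM in Sham + CD and at 34.4, 83.1, 31.6 and 65.9 CPM in TBI + CD. The libraries low for Pou4f1 were low for Tac2 as well. Chrnb4 ran from 0.735 to 51.0 CPM (median 27.5), Chrnb3 from 0.588 to 25.3 CPM (median 15.7), Chrna3 from 4.34 to 64.7 CPM (median 40.6), Gpr151 from 3.31 to 53.5 CPM (median 40.1) and Tyrp1 from 0.147 to 6.63 CPM (median 3.89). Sham + CD replicate 2 was the lowest of the 16 thalamic libraries at 29 dpi for each of the 7 genes. Its total of counts was also the lowest, 13596821 of a range up to 33713635, and its Pou4f1 value rests on 10 counts.

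Per kilobase of annotated exon, which allows levels of different genes to be compared, the median thalamic library at 29 dpi held 44.6 CPM per kb of Tac2 and 22.6 of Gpr151. Chrna3 (7.72 CPM per kb) and Chrnb4 (7.39 CPM per kb) were close to each other. Pou4f1 stood at 3.96, Chrnb3 at 2.46 and Tyrp1 at 1.37 CPM per kb. At 3 dpi the order was the same: 43.6 CPM per kb for Tac2, 24.0 for Gpr151, 7.22 for Chrna3, 6.81 for Chrnb4, 3.05 for Pou4f1, 2.64 for Chrnb3 and 1.28 for Tyrp1. The range over libraries of each gene was wider than the distance between neighbours in this order, for example 3.47 to 60.3 CPM per kb for Tac2 and 1.87 to 30.2 for Gpr151 at 29 dpi.

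The spread of each gene within groups was set beside that of all genes that passed the filter on low counts. It is the SD of the log2 CPM about the 4 group means, so that injury and drug do not enter it. At 29 dpi it was 1.87 for Chrnb4, 1.67 for Tyrp1, 1.55 for Pou4f1, 1.51 for Chrnb3, 1.30 for Chrna3, 1.21 for Gpr151 and 1.15 for Tac2 on the log2 scale. The median gene had an SD of 0.15. Chrnb4 held place 23 of 16957 genes from the top and Tac2, the lowest of the 7, place 164. At 3 dpi, in the libraries that chose the genes, the SD was 2.23 for Pou4f1 and 1.04 for Tac2.

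The spread at 29 dpi rested in part on 1 library. Without Sham + CD replicate 2 the median SD of the 7 genes was 0.998 instead of 1.51 on the log2 scale. As a description of depth, the mean log2 level of the 7 genes had r = 0.31 and rho = 0.23 with the log2 total count over the 16 thalamic libraries at 29 dpi, and r = -0.07 and rho = 0.05 at 3 dpi. In bulk tissue, fewer cells of a type and less RNA per cell cannot be told apart.

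Because the genes were chosen for leading the variation among the thalamic libraries at 3 dpi, their correlation was tested at 29 dpi. Over the 16 thalamic libraries, Pearson's r of log2 CPM was between 0.904 and 0.994 for the 21 pairs of genes (median 0.956), and Spearman's rho between 0.818 and 0.997. All 21 pairs passed a two-sided permutation test with 100000 resamples, with a largest p of 5e-05 after Benjamini-Hochberg adjustment over the 21 pairs for r and 0.0002 for rho. The closest pair was Chrna3 and Tyrp1 (r = 0.994, rho = 0.979), followed by the neighbouring subunit genes Chrna3 and Chrnb4 (r = 0.992, rho = 0.997). For both pairs the permutation p of r was 1e-05, the smallest that 100000 resamples can give, and 1.11e-05 after adjustment. The least close pair was Chrnb3 and Gpr151 (r = 0.904, rho = 0.821, permutation p of r = 5e-05).

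The correlation held without the extreme libraries and within groups. With the 2 libraries farthest from the median left out, r of the 21 pairs was between 0.755 and 0.989. For deviations from the group means, which leave out what injury and drug may do, r was between 0.923 and 0.996, and the largest adjusted permutation p was 0.00054. Without Sham + CD replicate 2, the lowest r was 0.799 and 21 of 21 pairs passed. At 3 dpi, as a description, r was between 0.833 and 0.995 (median 0.955).

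**Figure D2:**
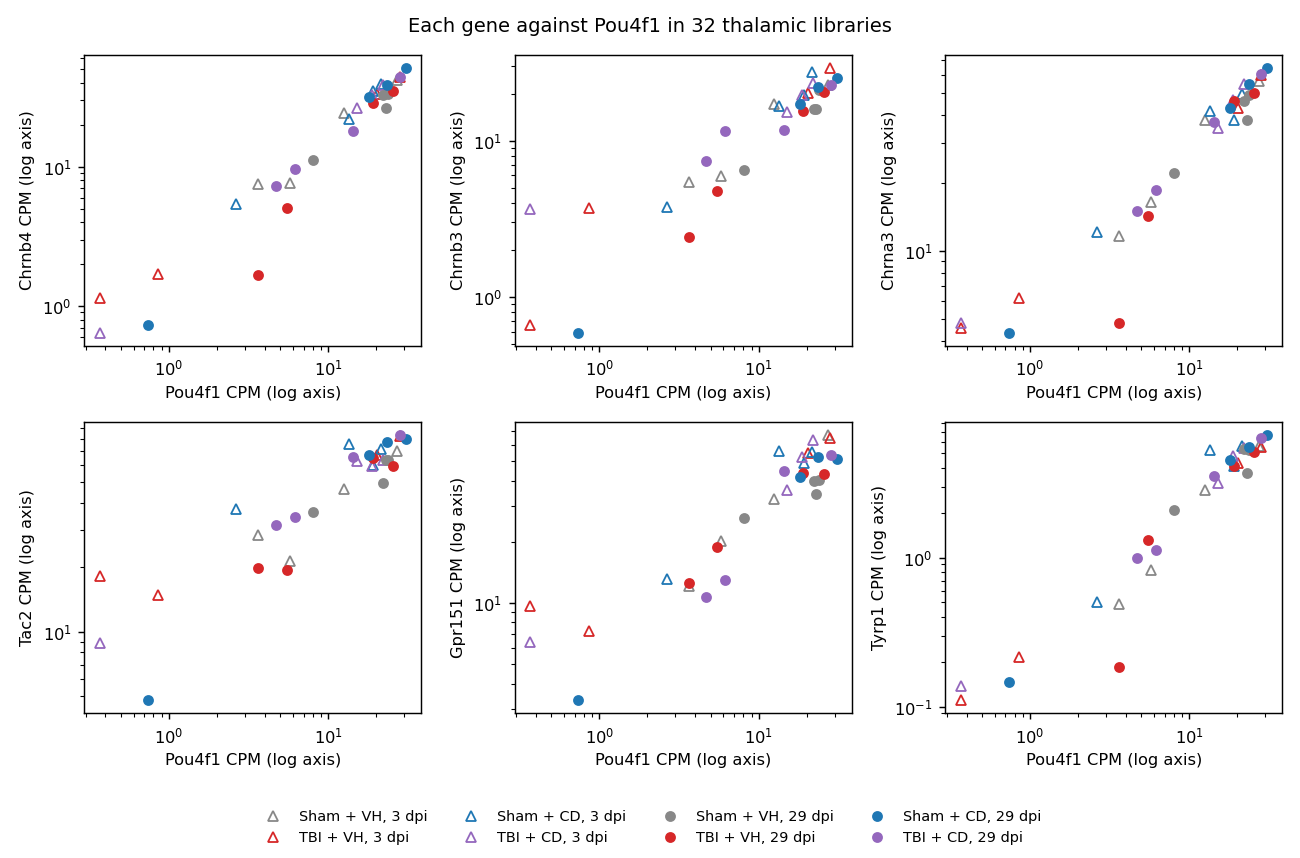
Each of the other 6 genes against Pou4f1 in the 32 thalamic libraries, both axes in CPM on log scales, with open triangles for 3 dpi, filled circles for 29 dpi and colours for the 4 groups. The points follow rising lines from about the lowest Pou4f1 level of 0.368 CPM to the highest of 30.7 CPM, and Tac2, Gpr151 and Chrna3 rise less steeply at 3 dpi than Chrnb4.

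The range of levels differed between the genes. The slope of a gene's log2 CPM on that of Pou4f1 was 0.95 for Chrnb4 and 0.88 for Tyrp1 at 3 dpi, against 0.67 for Chrnb3, 0.63 for Chrna3, 0.56 for Gpr151 and 0.44 for Tac2. At 29 dpi the slopes were 1.18 for Chrnb4, 1.04 for Tyrp1, 0.94 for Chrnb3, 0.81 for Chrna3, 0.75 for Gpr151 and 0.71 for Tac2. A slope under 1 means that the gene was higher relative to Pou4f1 in the libraries where Pou4f1 was low. The order of the 6 slopes was the same at both time points, and the slopes are given as a description.

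Chrnb3 departed from the pattern in a few libraries. This subunit is known also from midbrain dopamine neurons, so its ratio to Pou4f1 was set beside Slc6a3, the dopamine transporter gene of those neurons. The pairing was chosen after the values were seen and was not tested. At 29 dpi the CPM of Chrnb3 divided by that of Pou4f1 was 1.89 in TBI + CD replicate 1 and 1.59 in TBI + CD replicate 3, and between 0.669 and 0.958 in the other 14 libraries. Slc6a3 was at 66.7 and 39.5 CPM in those 2 libraries and between 0.329 and 31.7 CPM in the others. At 3 dpi the ratio was 10 in TBI + CD replicate 4 and 4.30 in TBI + VH replicate 4, where Slc6a3 was at 33.4 and 33.2 CPM and Pou4f1 at 0.368 and 0.856 CPM. The ratio did not always go with Slc6a3. TBI + VH replicate 3 had a ratio of 1.80 with 0.810 CPM of Slc6a3 at 3 dpi, on 18 counts of Chrnb3, and Sham + CD replicate 1 held 68.8 CPM of Slc6a3 with a ratio of 1.28. What was left of Chrnb3 after a line on the mean of the other 6 genes had r = 0.83 (rho = 0.66) with the log2 sum of the 7 dopamine neuron markers at 29 dpi and r = 0.66 (rho = 0.71) at 3 dpi, as a description among 42 such pairs of a gene and a list at each time point. Chrnb3 was not alone among these pairs. With the dopamine markers at 29 dpi, Chrna3 had r = -0.37 (rho = -0.73) and Tac2 r = 0.42 (rho = 0.63). With a list of choroid plexus genes at 3 dpi, Pou4f1 had r = 0.81 (rho = 0.60).

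**Figure D3:**
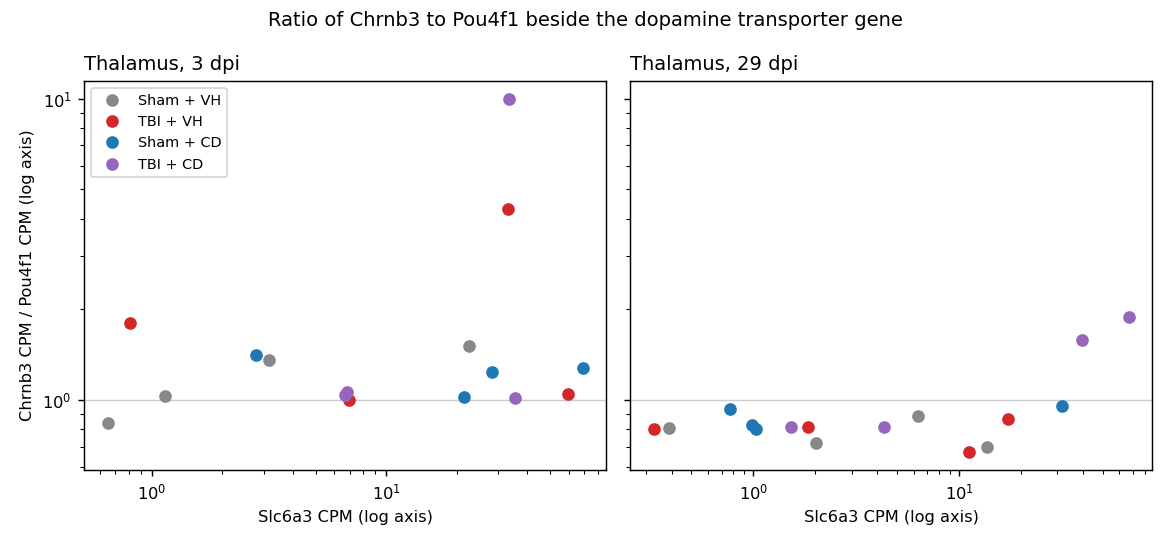
Ratio of Chrnb3 to Pou4f1, in CPM, against the CPM of the dopamine transporter gene Slc6a3 in the 16 thalamic libraries of each time point, both axes on log scales and colours for the groups. At 29 dpi the 2 points above a ratio of 1 (1.89 and 1.59, both TBI + CD) have the highest Slc6a3 levels, and at 3 dpi the 2 highest ratios (10 and 4.30) come from libraries with little Pou4f1.

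The members were then compared between the groups within each region and time point, by edgeR's quasi-likelihood F test with a false discovery rate (FDR) under 0.05, adjusted by Benjamini-Hochberg over all genes tested, and an absolute log2 fold change above 0.32. There were 6 comparisons in each set of libraries: the 3 other groups against Sham + VH, TBI + CD against TBI + VH, injury over both drug arms, and the interaction of injury and candesartan. Comparisons with Sham + VH share those libraries. Over the 30 comparisons outside the thalamus at 3 dpi, with 174 member values tested, 0 members were called by edgeR and 0 by DESeq2.

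In the thalamus at 29 dpi the 7 genes were lower after injury in the fitted values, and each interval held 0. Over both drug arms the log2 fold change of injury was -0.51 (SE 0.52, 95% interval -1.60 to 0.59, FDR 0.89) for Pou4f1, with group means ± SD (n = 4) of 19.2 ± 7.47 CPM (Sham + VH) and 13.4 ± 10.6 CPM (TBI + VH) with vehicle. With candesartan the means were 18.2 ± 12.8 CPM in sham and 13.3 ± 10.8 CPM in injured mice. It was -0.61 (SE 0.59) for Chrnb4, -0.58 (SE 0.56) for Tyrp1, -0.42 (SE 0.47) for Chrna3, -0.40 (SE 0.48) for Chrnb3, -0.30 (SE 0.42) for Gpr151 and -0.26 (SE 0.39) for Tac2, by edgeR, with FDR between 0.88 and 0.93. Each of the 7 values moved by over 1.5 times, and stayed below 0, when 1 library was left out: without TBI + CD replicate 2, that of Chrnb4 was -1.01, that of Tyrp1 -0.94, that of Chrna3 -0.66 and that of Gpr151 -0.52. Without TBI + VH replicate 3 those of Chrna3 and Chrnb3 were -0.23, and the ranges over the 16 libraries were -0.67 to -0.23 for Chrnb3, -0.52 to -0.15 for Gpr151 and -0.44 to -0.14 for Tac2. None of the 42 member values at 29 dpi had an unadjusted p under 0.05, in edgeR or in DESeq2. The percentage of all 16957 genes called was 0 in each of the 6 comparisons, so the count of 0 members does not set them apart.

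With this spread, 4 libraries per group gave wide intervals. For Pou4f1 in TBI + VH against Sham + VH at 29 dpi, the log2 fold change was -0.53 with a 95% interval from -2.08 to 1.02, which holds large changes in either direction. For Tac2, the gene with the smallest spread, the interval was -1.58 to 0.79. Candesartan in sham mice gave -0.02 (interval -1.55 to 1.51) for Pou4f1, and the interaction of injury and candesartan gave 0.04 (interval -2.15 to 2.23).

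At 3 dpi the thalamic fold changes are a description, since those libraries chose the genes. In TBI + VH against Sham + VH the 7 log2 fold changes were between -0.11 and 0.13, and over both drug arms injury gave values between -0.10 and -0.01. In Sham + CD against Sham + VH they were between 0.23 and 0.69. The percentage of all genes called was 0.298 in TBI + VH against Sham + VH, 0.418 in TBI + CD against Sham + VH, 0.907 for injury over both drug arms and 0 in the other 3 comparisons. In the same fits 7 of 8 reaction genes of microglia and astrocytes (Gfap, C4b, Cd68, Tyrobp, Serpina3n, Aif1 and Mki67) rose with injury over both drug arms, the eighth being Lcn2. Their list had a median log2 fold change of 1.26 beside -0.0025 over all genes tested.

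In the hypothalamus and the hippocampus, 13 member values of the 132 tested had an unadjusted p under 0.05 by edgeR, and 0 were called. By edgeR and DESeq2 these were 2 and 4 in the hypothalamus at 3 dpi, 6 and 9 in the hypothalamus at 29 dpi, 1 and 2 in the hippocampus at 3 dpi, and 4 and 8 in the hippocampus at 29 dpi. Over all genes, the percentage with such a p lay between 2.08 and 45 in these comparisons. This range is pooled over all of them, so it does not tell whether the members of a set exceed the share over all genes. The percentage of all genes called ran from 0 to 0.0177 in the hypothalamus at 3 dpi, from 0 to 0.00583 in the hypothalamus at 29 dpi, and from 0 to 1.62 in the hippocampus at 29 dpi, where it was 0.529 in TBI + VH and 0.119 in TBI + CD against Sham + VH. In the hippocampus at 3 dpi it was 10.7 in TBI + VH, 12.1 in TBI + CD and 1.5 in Sham + CD against Sham + VH, and 15.8 for injury over both drug arms, and 0 of the 5 members tested there were called. Pou4f1 passed the filter on low counts in neither region, and Tyrp1 did not pass it in the hippocampus.

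Tac2 in the hypothalamus at 29 dpi was among the 13 values. It was at 26.2, 27.4, 30.3 and 28.3 CPM in Sham + VH and at 37.4, 44.2, 33.3 and 41.6 CPM in Sham + CD, and these groups did not overlap. The percentage of all genes whose groups did not overlap in this comparison was 9.47. The log2 fold change was 0.51 (SE 0.20, edgeR FDR 0.36). In TBI + CD it was at 37.2, 27.9, 31.8 and 32.03 CPM and in TBI + VH at 24.6, 28.3, 31.3 and 56.9 CPM. Tyrp1 in the same region and time point was at 0.123, 0.440, 0.429 and 0.364 CPM in Sham + VH and at 0.519, 0.382, 1.054 and 0.745 CPM in Sham + CD, with a log2 fold change of 1.04 (SE 0.39, edgeR FDR 0.36). Its interaction of injury and candesartan was -1.93 (SE 0.54, edgeR FDR 0.79). Gpr151 in the hypothalamus at 3 dpi had a log2 fold change of 0.92 for injury over both drug arms (SE 0.35, edgeR FDR 0.66), with its highest value, 3.48 CPM, in TBI + VH replicate 1. Without that library the log2 fold change was 0.56.

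The regions were compared at 29 dpi over all 48 libraries of that time point, each averaged over the 4 groups and taken as independent. Pou4f1 in both other regions and Tyrp1 in the hippocampus did not pass the filter on low counts there and entered this fit only through the thalamic libraries, so their differences are given as a description without a test. The other 5 genes were higher in the thalamus than in the hippocampus, and the other 6 than in the hypothalamus, by edgeR. Of all 17935 genes tested, the percentage called was 47.6 against the hippocampus and 37.6 against the hypothalamus, and that called and higher in the thalamus was 23.6 and 17.3, so a call in this direction was common.

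As a description, Pou4f1 had the largest fitted difference of the 7 genes between regions. Its level was between 0 and 0.614 CPM in the 16 hypothalamic libraries at 29 dpi, with a median of 0.133, and its median in the hippocampus was 0.0359 CPM, with 7 libraries at 0 counts. The log2 fold change of thalamus against hippocampus was 7.16 (SE 0.55), and it was 8.95 without TBI + CD replicate 2 of the hippocampus. Against the hypothalamus it was 6.39 (SE 0.48). Gpr151 was at a median of 0.552 CPM in the hippocampus and 0.712 CPM in the hypothalamus, with log2 fold changes of 5.25 (SE 0.36) and 5.29 (SE 0.34).

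The nicotinic subunit genes differed in their second region. Chrna3 had a median of 0.661 CPM in the hippocampus and 7.23 CPM in the hypothalamus, and its log2 fold changes were 5.17 (SE 0.36) and 2.35 (SE 0.27). Chrnb4 had medians of 0.426 and 1.58 CPM, with log2 fold changes of 4.95 (SE 0.44) and 3.89 (SE 0.38), and Chrnb3 had medians of 0.457 and 1.48 CPM, with log2 fold changes of 4.21 (SE 0.37) and 3.19 (SE 0.32). Tyrp1 was low in both regions, with medians of 0.334 and 0.434 CPM and log2 fold changes of 3.26 (SE 0.36), a description only, and 2.98 (SE 0.33).

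Tac2 had the smallest difference of the 7 genes between thalamus and hypothalamus, while against the hippocampus that of Tyrp1 was smaller. Its hypothalamic libraries at 29 dpi ran from 24.6 to 56.9 CPM with a median of 31.5, inside the range of 4.78 to 83.1 CPM of the thalamic ones. Its log2 fold change against the hypothalamus was 0.68 (SE 0.21, FDR 0.00505 by edgeR) and against the hippocampus 3.58 (SE 0.26). Neurokinin B is known also from neurons of the hypothalamus. At 3 dpi, as a description, the log2 fold changes against the hypothalamus and the hippocampus were 0.66 and 4.05 for Tac2, and 6.71 and 7.93 for Pou4f1.

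**Figure D4:**
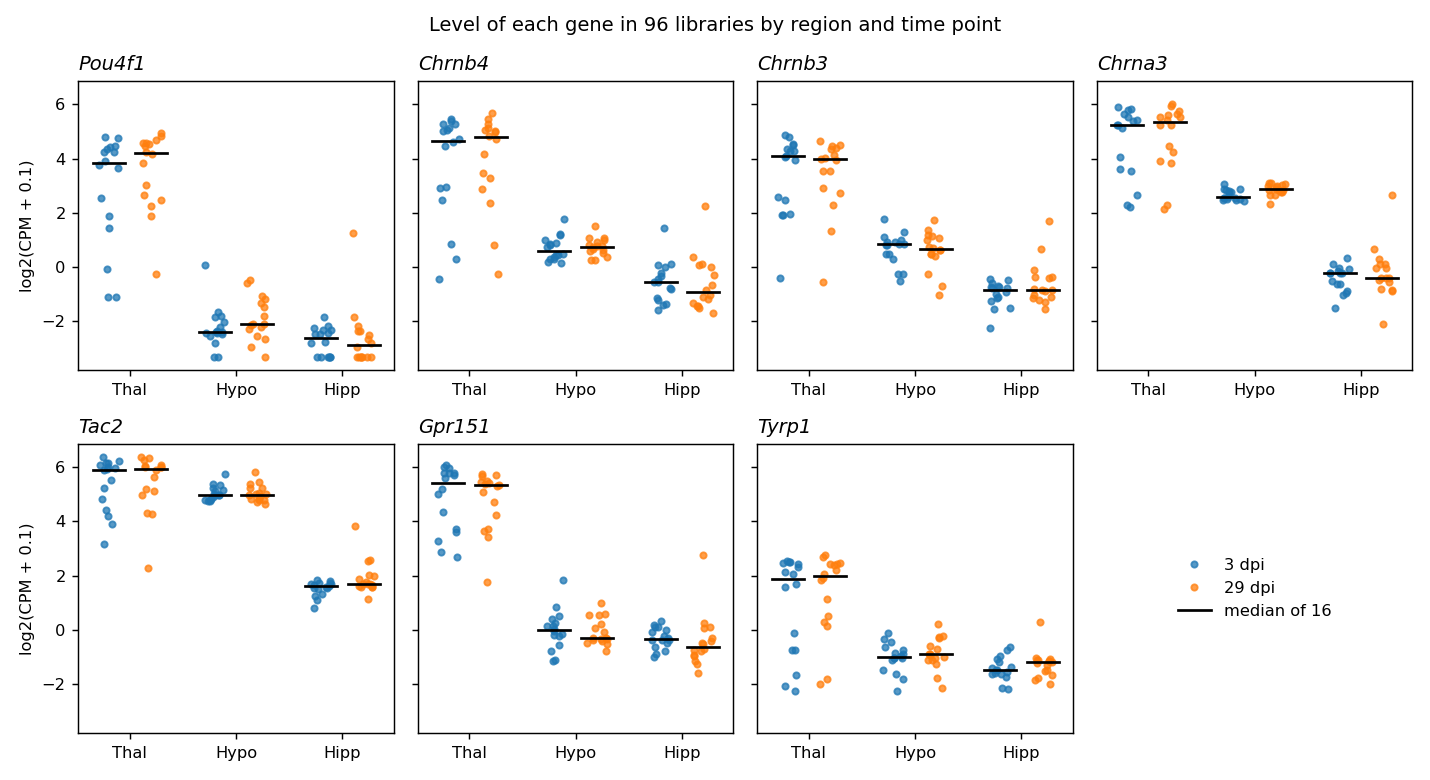
Level of each gene in the 96 libraries, as log2(CPM + 0.1), by region (thalamus, hypothalamus, hippocampus) and time point (blue 3 dpi, orange 29 dpi), with a bar at the median of 16 libraries. In the thalamus each gene spreads over a wide range, in the hypothalamus Tac2 and Chrna3 form narrow bands (medians 31.5 and 7.23 CPM at 29 dpi), and 1 hippocampal library at 29 dpi sits above the others for every gene.

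In the other regions the within-group SD of each gene at 29 dpi was lower than in the thalamus, by a margin that differed between genes and regions. In the hypothalamus it ran from 0.20 (Chrna3) and 0.31 (Tac2) to 0.72 (Chrnb3) and 0.77 (Pou4f1) on the log2 scale. In the hippocampus at 29 dpi it was nearer to that of the thalamus, from 0.54 (Tyrp1) to 1.07 (Gpr151) and 1.31 (Pou4f1), beside 1.15 (Tac2) to 1.87 (Chrnb4) in the thalamus. The median over the 7 genes there was 0.565 without TBI + CD replicate 2. The median r of the 21 pairs was 0.02 in the hypothalamus at 29 dpi, 0.24 in the hypothalamus at 3 dpi and 0.04 in the hippocampus at 3 dpi, as a description over 16 libraries each with few counts for most genes. In the hippocampus at 29 dpi the median r was 0.67, and it was 0.05 without TBI + CD replicate 2.

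That hippocampal library, TBI + CD replicate 2 at 29 dpi, was the highest of its 16 for all 7 genes. Pou4f1 was at 2.30 CPM (77 counts) there and at most 0.177 CPM in the other 15. Gpr151 was at 6.71 CPM beside at most 1.08, Chrna3 at 6.24 beside at most 1.501, Tac2 at 14.0 beside at most 5.79, Chrnb4 at 4.69 beside at most 1.19, Chrnb3 at 3.16 beside at most 1.48 and Tyrp1 at 1.13 beside at most 0.384 CPM. The excess over the median of the other 15 libraries was between 12.3% (Pou4f1) and 20.7% (Tyrp1) of the level in the median thalamic library of that time point. The summed pineal list, another tissue of the epithalamus, was also highest in this library, at 14.6 CPM beside 6.45 to 9.50. For 20 other genes known from habenular neurons, described below, the sum was 2120 CPM, inside the range of 1863 to 2197 of the other 15. Slc17a7, a gene of that list, alone had a median of 1547 CPM in the hippocampus at 29 dpi. The summed list of thalamic relay neurons was at 348 CPM there, beside a median of 343 in the other 15, and that of the choroid plexus at 2358 CPM, inside the range of 46.2 to 7450. Their part in the result was not tested. The log2 fold change of Gpr151 in TBI + CD against Sham + VH in the hippocampus at 29 dpi, 1.96 (SE 0.81, edgeR FDR 0.60), was -0.14 without this library, and that of Chrna3 in TBI + CD against TBI + VH went from 1.82 (SE 0.70, edgeR FDR 0.88) to 0.25.

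In the hypothalamus at 3 dpi, TBI + VH replicate 1 was the highest of its 16 libraries for Pou4f1 (0.956 CPM beside at most 0.217), Chrnb4 (3.35 beside at most 2.22), Chrnb3 (3.30 beside at most 2.34) and Gpr151 (3.48 beside at most 1.69). Chrna3, Tac2 and Tyrp1 were within the range of the other libraries there.

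Other genes known from habenular neurons were examined as a list of 20 that leaves out the 7, written with results of these data known. Of the 19 that averaged 1 CPM or more in the thalamus at both time points, 12 had r of at least 0.8 with the mean standardized log2 level of the 7 genes at 3 dpi and 12 at 29 dpi. Among all 14804 genes compared, 1.43% and 1.60% reached this value. The median r of the list was 0.91 at each time point, beside 0.0039 at 3 dpi and -0.0041 at 29 dpi over all genes. The correlations are a description over 16 libraries.

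Among those that followed were the genes of acetylcholine neurons. Chat, which makes acetylcholine, ran from 0.441 to 11.99 CPM in the thalamus at 29 dpi with r = 0.97, Slc18a3, its vesicular transporter, from 0.441 to 6.90 CPM with r = 0.91, and Slc5a7, the choline transporter, from 2.06 to 25.6 CPM with r = 0.97. Nwd2 (9.34 to 224 CPM, r = 0.998) and Lrrc55 (13.6 to 125 CPM, r = 0.99) followed the 7 genes most closely within the list. The developmental transcription factor genes Irx1 (r = 0.89) and Irx2 (r = 0.94) and the nuclear receptor gene Nr4a2 (r = 0.98) followed as well at 29 dpi. Tac1, the gene of substance P, did not, with r = -0.24 at 3 dpi and 0.33 at 29 dpi, nor did Calb2 (-0.33 and 0.19), Spon1 (-0.59 and -0.56) or Pcdh10 (-0.60 and -0.43). Calb2 was at 148 CPM or more, Spon1 at 166 or more and Pcdh10 at 155 or more in every thalamic library at 29 dpi.

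The other nicotinic subunits did not follow. Of 13 genes, 4 averaged 1 CPM or more, and 0 of these had r of at least 0.8 at either time point. Chrna4 and Chrnb2, the subunits of the most common brain receptor, were at medians of 177 and 182 CPM in the thalamus at 29 dpi, with ranges of 151 to 240 and 163 to 210 CPM and r of -0.21 and -0.22. Chrna6 had r = -0.15 and Chrna7 r = 0.21. Chrna5, the neighbour of Chrna3, was at a median of 0.417 CPM in the thalamus at 29 dpi, below the 4.83 CPM of the hippocampus, although it is known from habenular receptors. It reached 6.82 CPM in 1 thalamic library, TBI + CD replicate 1, at 29 dpi.

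Of the 5 tachykinin genes, 3 averaged 1 CPM or more. Tacr1, the receptor of substance P, had r = 0.84 at 3 dpi and 0.91 at 29 dpi, with a range of 4.56 to 19.7 CPM at 29 dpi. Tacr3, the receptor of neurokinin B, ran the other way, with r = -0.63 and -0.37. Of the POU4 family and its partners, Pou4f2 and Pou4f3 had thalamic medians of 0.035 and 0.015 CPM at 29 dpi. Their highest values there were 0.487 and 0.119 CPM. Nhlh2 followed (r = 0.96 and 0.91) and Isl1 did not (r = -0.53 and -0.33). Of the 8 other genes of melanin synthesis, 1 (Mitf, r = -0.05 and -0.09) averaged 1 CPM or more, and Tyr was at a median of 0 CPM.

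Over both time points, 133 of the 14804 genes had r of at least 0.8 with the 7 genes, 57 had r of at least 0.9, and 1 had r of -0.8 or lower. The 10 genes most like them, by the lower of the 2 values of r, were Nwd2, Scube1, Lrrc55, Robo3, Htr5b, Sytl1, AK047857, Clec18a, Ano1 and Prkcq, with r between 0.970 and 0.998 at 29 dpi. Scube1 ran from 8.24 to 228 CPM in the thalamus at 29 dpi. Robo3, an axon guidance receptor gene, ran from 1.62 to 83.8 CPM with a median of 36.3 CPM in the hippocampus and 1.77 CPM in the hypothalamus, and the serotonin receptor gene Htr5b from 0.221 to 18.3 CPM. AK047857 was at a median of 0 CPM in the other regions. The likeness is over 16 libraries at each time point.

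Markers of neighbouring tissue were summed in each thalamic library. The ependyma list, cells that line the third ventricle beside the habenula, had r = 0.82 between its log2 sum and the mean of the 7 genes at 3 dpi and 0.77 at 29 dpi, and 3 of its 7 genes reached r of at least 0.8 at each time point. Ccdc153, for example, ran from 1.47 to 26.9 CPM at 29 dpi. The thalamic relay list had r = 0.33 and -0.38, and its sum ran from 2712 to 4425 CPM at 3 dpi and from 3335 to 5154 CPM at 29 dpi. The choroid plexus list ran from 23.8 to 3407 CPM at 3 dpi with r = 0.04 and from 24.6 to 3832 CPM at 29 dpi with r = 0.20. The hypothalamic neuron list had r = -0.56 and -0.40, the midbrain dopamine list 0.15 and -0.07, the pineal list 0.55 and 0.52, the hippocampal neuron list 0.48 and 0.61, and the microglia and astrocyte reaction list 0.25 and 0.30. Spearman's rho was -0.86 and -0.44 for the hypothalamic list, 0.84 and 0.59 for ependyma, and 0.45 and -0.05 for relay neurons. It was 0.43 and 0.01 for choroid plexus, 0.14 and -0.28 for dopamine, and 0.58 and 0.53 for pineal. For hippocampal neurons it was 0.58 and 0.78, and for the reaction list 0.30 and 0.04. The genes of the hippocampal neuron list were unlike each other, with Neurod1 at 0.96 and 0.92 and Fibcd1 at 0.79 and 0.87, but Prox1 at 0.02 and 0.0012, Dsp at -0.15 and 0.14 and Wfs1 at -0.52 and -0.05. The part of these tissues in the levels of the 7 genes was not tested.

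**Figure D5:**
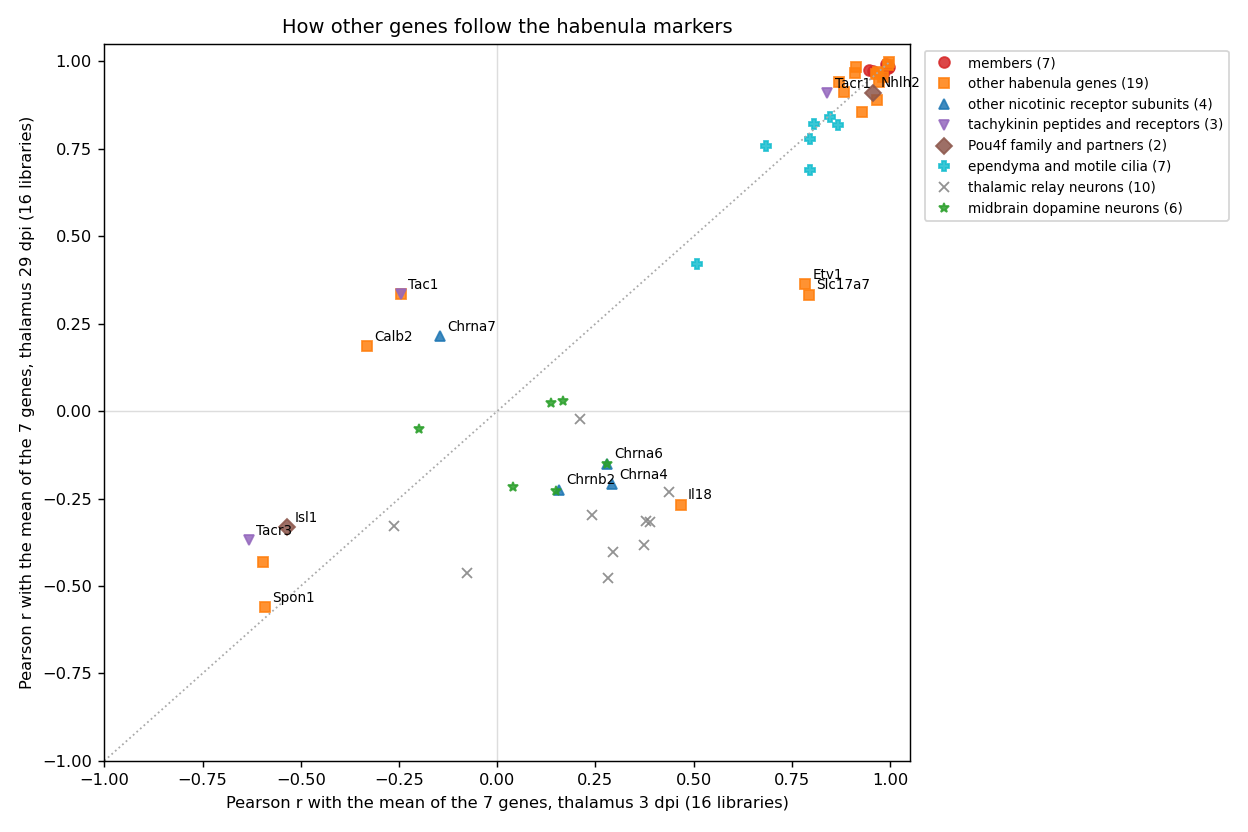
Pearson r of each list gene's log2 CPM with the mean of the 7 genes over 16 thalamic libraries at 3 dpi (horizontal) and at 29 dpi (vertical), for genes that averaged 1 CPM or more, with a symbol for each list and the number of genes in the legend. The 7 genes, 12 of 19 other habenula genes, Tacr1, Nhlh2 and the ependyma genes Tmem212, Rarres2 and Ccdc153 have r of at least 0.8 at both time points, while the other nicotinic subunits, among them Chrna4 and Chrnb2, lie near 0. The mean contains each of the 7 genes itself, so their own r is high in part by construction.

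In a principal component analysis of the 5000 most variable genes of the thalamus, the first component at 29 dpi took 28.0% of the variance and had an absolute r of 0.82 with Pou4f1, with Ttr and Folr1, genes of the choroid plexus, at its head. At 3 dpi it took 24.1% of the variance with an absolute r of 0.90, and Gm5741, Pou4f1, Chrnb4 and Tyrp1 at its head. The 3 dpi values are a description, since those libraries chose the genes.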

How the data were processed

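The authors sequenced poly(A) RNA of the 3 regions with a stranded kit, aligned the reads to mm10 with MapSplice 2.2.1, counted them per gene with HTSeq 0.9.1 and deposited raw counts, 1 table per time point with 32594 genes, of which 63 symbols repeat. The annotation and strand setting of the counting are not given in the sources used here, so reads of overlapping genes cannot be told apart. All columns had a sample.

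Levels are CPM, counts over the library total scaled to 1000000. Thalamic totals ran from 17440742 to 29956621 at 3 dpi and from 13596821 to 33713635 at 29 dpi, and the lowest of all was 6663629 in the hippocampus at 29 dpi. Over 144 pairs of libraries of a group, a chi-square of the counts per degree of freedom was at least 2.75, so none was treated as a repeated deposit.

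Tests used edgeR 4.0.16 (R 4.3.3) with its filter on low counts, TMM scaling and the quasi-likelihood F test, fitted on all genes of the 16 libraries of a region and time point, or on the 48 libraries of 29 dpi between regions. The authors used DESeq2 1.16.1, and DESeq2 1.42.0 was run as an alternative. The scripts were tested on simulated data. Log2 CPM for spread and correlation used TMM and a prior count of 2. Region plots used log2(CPM + 0.1).

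The 7 genes and the 14 gene lists were chosen with earlier results of these data known. By the naming rule, the 7 genes, the list genes called in a thalamic comparison, up to 4 list genes with the highest mean CPM and the 10 genes most like the 7 were named. Other list genes and Slc6a3 were named after their values were seen.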

Additional observations from a re-analysis of the deposited data

Results flagged for a closer look

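Of 168 groups of 4 libraries (7 genes in 24 groups), 24 held a library far from the other 3 by the 5% limit of Dixon's test. The 7 genes share their libraries and vary together in the thalamus, so this count cannot be set against a chance rate of 5%. The thalamic libraries at 3 dpi chose the genes, so what was flagged there is a description without a test. The flagged values in the thalamus at 3 dpi were Tac2 in TBI + CD replicate 4 (8.82 CPM, the next lowest 60.0) and Gpr151 in Sham + CD replicate 4 (13.1 CPM, the next 48.9). At 29 dpi they were Pou4f1 in Sham + VH replicate 4 (8.04 CPM, the next 22.0) and Tac2 in Sham + CD replicate 2 (4.78 CPM, the next 67.4). The other genes were low in these libraries as well.

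In the hippocampus at 29 dpi, TBI + CD replicate 2 was far above its group for all 7 genes: 2.30 CPM of Pou4f1, 4.69 of Chrnb4, 3.16 of Chrnb3, 6.24 of Chrna3, 14.0 of Tac2, 6.71 of Gpr151 and 1.13 of Tyrp1. Elsewhere in that set, Chrnb4 in Sham + CD replicate 3 (0.725 CPM), Chrnb3 in Sham + VH replicate 3 (1.48 CPM) and Gpr151 in Sham + VH replicate 4 (0.961 CPM) were high, and Gpr151 in Sham + CD replicate 2 (0.315 CPM) was low.

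In the hypothalamus at 3 dpi, Pou4f1 (0.956 CPM) and Chrnb3 (3.30 CPM) were high in TBI + VH replicate 1, Chrnb4 (1.76 CPM) was high in Sham + CD replicate 1, where Pou4f1 was at 0 CPM and lowest, and Chrna3 (7.10 CPM) was high in Sham + VH replicate 2. At 29 dpi, Gpr151 was high in TBI + VH replicate 2 (1.35 CPM). In the hippocampus at 3 dpi, Pou4f1 was the only value above 0 of its group in TBI + CD replicate 1 (0.0469 CPM), Chrnb4 was low in Sham + VH replicate 3 (0.284 CPM) and Tac2 was low in TBI + VH replicate 3 (2.05 CPM).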

How the results depend on the processing

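Outside the thalamus at 3 dpi, no member was called between groups under any of 22 settings (scaling, filter, tool, replicate block, fewer groups, each replicate left out), the lowest FDR of a gene that passed the filter with all libraries being 0.0884 (Tac2, hypothalamus at 29 dpi, Sham + CD against Sham + VH, only these groups fitted). Tyrp1 in the hippocampus at 3 dpi did not pass it but had a fit under 15 settings, with a lowest FDR of 0.0583 for injury, without Sham + CD replicate 2. The 5 genes tested against the hippocampus and the 6 against the hypothalamus were called between regions, and the 21 pairs passed, under every setting run on them. The median within-group SD of the 7 genes, with each replicate left out in turn, ran from 0.998 to 1.58 in the thalamus at 29 dpi, lowest without Sham + CD replicate 2, and from 0.565 to 1.06 in the hippocampus at 29 dpi, lowest without TBI + CD replicate 2. Without that hippocampal library the log2 fold change of Gpr151 in TBI + CD against Sham + VH turned from 1.96 to -0.14 (highest 2.33, without TBI + CD replicate 4) and the median r of the pairs went from 0.669 to 0.0546. The fitted injury value of Pou4f1 in the thalamus at 29 dpi ran from -0.86 to -0.32 with each replicate left out. Counts of called genes in the thalamus at 3 dpi moved more: in TBI + VH against Sham + VH 50 genes by edgeR, 91 by DESeq2, 3 with only these groups fitted and 24 to 79 with a replicate left out, and in TBI + CD against Sham + VH 70, 128, 27 and 31 to 81. The cause was not tested. Not every same-numbered pair of samples correlated above 0.1 (15 of 24 in the thalamus at 3 dpi and 9 of 24 at 29 dpi), so the replicate numbers were not taken as a pairing. As a hint from the data, the median correlation at 3 dpi was 0.129 for pairs with the same number and -0.026 for others, and 10 of 16 libraries correlated best with their own number, beside 0.0068, 0.0082 and 4 of 16 at 29 dpi. With the replicate block, 47 and 79 genes were called in the 2 comparisons above, and no member call outside the thalamus at 3 dpi changed. Tyrp1 and Pou4f1 are limited by depth outside the thalamus, with 0 counts of Pou4f1 in 7 of 16 hippocampal libraries at 29 dpi.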
